A study of Mus musculus with 6 samples.

Results

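The control pancreas of a study of Prox1 in acinar cells is described here as a tissue in its own right, from its 3 control libraries out of 6 libraries in the series. The members were chosen by their titles, which name them as controls with Cre alone, replicates 1 to 3. They came from whole pancreas of NMRI mice at postnatal day 7 with the genotype Ptf1a cre/+, which means a Cre allele and a wild-type allele at Ptf1a. The Cre is driven by Ptf1a itself, a gene of pancreatic progenitors and acinar cells. All 3 libraries share this allele, and how far that allele still makes Ptf1a protein is not stated in the sources used here. The other 3 libraries, from mice that also carried a transgene for Prox1, were not used here.

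The organs were kept in RNAlater, RNA was extracted with TRIzol and a PureLink kit, and TruSeq mRNA libraries were read on a NextSeq instrument. The design text calls the control samples pools, whereas the extraction protocol speaks of individual pancreata, and neither says how many animals or litters a library holds. The spread between libraries given below may thus be partly technical, or may average over several animals. Values are in CPM, the counts of a gene per 1000000 counts of its library, given in the order control 1, control 2 and control 3. Levels of different genes are compared in TPM, in which counts are first divided by the gene's exon length and then scaled to 1000000 per library. Sums of lists are also given in CPM, where longer messages weigh more.

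The exocrine pancreas is built mainly of acinar cells, which make digestive enzymes, store most of them as inactive zymogens in granules and release them into ducts. Acinar enzyme genes are switched on by PTF1, a complex of the basic helix-loop-helix protein Ptf1a, a common E protein and Rbpjl, which binds an E-box next to a TC-box. Islets, ducts, stroma, vessels and blood cells make up the rest of the organ, and at this age pups feed on milk and the organ is still growing.

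The upstream sequences of 4 enzyme genes are shown because these genes had the highest TPM of the enzyme genes with a promoter entry, and together gave 39.6% of all counts. Each line holds the 250 bases before the RefSeq transcription start in GRCm38.p6, 5′ to 3′ on the strand of the gene. Capitals mark the E-box core CACCTG and the TC-box core TTTCCC on either strand. Read from the other strand the E-box core is CAGGTG, whereas the TC-box core then reads GGGAAA. The windows are chr8:111691011-111691260 on the minus strand for Ctrb1, chr19:58728637-58728886 on the plus strand for Pnliprp1, chr6:41521526-41521775 on the plus strand for Prss2 and chr2:28563404-28563653 on the minus strand for Cel.
Ctrb1: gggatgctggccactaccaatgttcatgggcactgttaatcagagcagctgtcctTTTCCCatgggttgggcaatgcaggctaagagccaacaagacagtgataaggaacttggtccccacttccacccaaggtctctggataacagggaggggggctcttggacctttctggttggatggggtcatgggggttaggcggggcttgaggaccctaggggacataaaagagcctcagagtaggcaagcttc
Pnliprp1: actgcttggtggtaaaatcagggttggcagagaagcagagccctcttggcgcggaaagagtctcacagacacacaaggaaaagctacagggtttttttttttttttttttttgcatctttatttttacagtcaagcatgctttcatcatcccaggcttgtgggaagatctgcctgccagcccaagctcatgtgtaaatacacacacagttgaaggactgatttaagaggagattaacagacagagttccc
Prss2: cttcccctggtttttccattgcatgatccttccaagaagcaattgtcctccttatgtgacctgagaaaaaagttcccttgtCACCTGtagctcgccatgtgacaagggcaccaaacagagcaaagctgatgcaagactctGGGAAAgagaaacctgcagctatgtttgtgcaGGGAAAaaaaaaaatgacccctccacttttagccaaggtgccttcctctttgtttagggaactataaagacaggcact
Cel: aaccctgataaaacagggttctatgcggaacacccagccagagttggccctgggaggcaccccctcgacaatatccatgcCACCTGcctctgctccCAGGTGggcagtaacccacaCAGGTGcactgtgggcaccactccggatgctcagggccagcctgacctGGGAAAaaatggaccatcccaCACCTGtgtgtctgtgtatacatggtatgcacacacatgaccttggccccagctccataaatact

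The Cel window held 4 E-box cores and 1 TC-box core, and the Prss2 window held 1 E-box core and 2 TC-box cores. The Ctrb1 window held 1 TC-box core and no CACCTG, and the Pnliprp1 window held neither word. The wider E-box word CANNTG occurred 1 time in the Ctrb1 window, just before the TC-box core, and 2 times in the Pnliprp1 window. Of the 23 enzyme genes at 1000 TPM or more, 19 had a promoter entry, and 15 of these 19 windows held CACCTG on either strand, against 17.2% of all 32851 RefSeq windows of the same length. TTTCCC was present in 8 of the 19 windows against 21.9% of all windows, and 6 of 19 held both words against 3.61%. The general E-box CANNTG, which includes the core, occurred in 18 of the 19 windows against 66.2% of all. It occurred together with TTTCCC in 8 of the 19 against 14.2% of all. All 6 trypsinogen windows held CACCTG, but these genes are near copies of each other, and among the other enzymes the count was 9 of 13. TTTCCC was in 3 of the 6 trypsinogen windows and in 5 of the other 13. CACCTG and TTTCCC occurred together in 3 of the 6 and in 3 of the other 13. A match shows only that the letters occur in the window.

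The libraries held 7304727, 9522106 and 10773223 counts over 23337 gene symbols, so 1 CPM corresponded to between 7.30 and 10.8 counts. A chi-square statistic of the counts per degree of freedom, used only to check whether any pair held the same library, was 20.5 for controls 1 and 2, 18.9 for controls 1 and 3 and 6.14 for controls 2 and 3. Control 1 stood apart from the other pair in sex-linked genes. It had 7110 counts of Xist, the RNA that silences an X chromosome in female cells, and none of 4 Y-linked genes. Controls 2 and 3 had 4 and 1 counts of Xist and 1132 and 1358 Y-linked counts. Whether sex has a part in any difference of control 1 described below was not tested, and with a single such library it cannot be told apart from that library. Scaling by the trimmed mean of M-values (TMM) gave factors of 0.969, 1.01 and 1.02. Over 12894 genes whose mean reached 1 CPM, 30.7%, 30.5% and 38.8% were highest in controls 1, 2 and 3, and 46.4%, 27.4% and 26.3% were lowest there. After TMM scaling 39.3%, 28.7% and 32.0% were highest and 38.7%, 28.9% and 32.4% lowest. Counts of list members by library below are set against these shares of all genes.

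A very small set of genes took most of the counts. Ranked by mean CPM, the 10 most abundant genes held 58.3%, 57.1% and 56.8% of the counts, a mean of 57.4% ± 0.798 (SD, n = 3), and they were the same 10 genes in each library. They were Pnliprp1, Ctrb1, Cel, Cpb1, Prss2, Cpa1, Cela2a, Clps, Reg1 and 2210010C04Rik, which is 9 enzyme or cofactor genes, the defining products of the labelled tissue, and the secreted lectin Reg1. In each library 7 genes were enough for 50% of the counts. Reaching 75% took 234, 298 and 320 genes, and reaching 90% took 3003, 3214 and 3267 genes. Of the 20 genes of highest CPM, 18 were digestive enzyme genes, the others being Reg1 and the collagen gene Col3a1, and 18 of the 20 were also among the 20 highest by TPM.

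**Figure D1:**
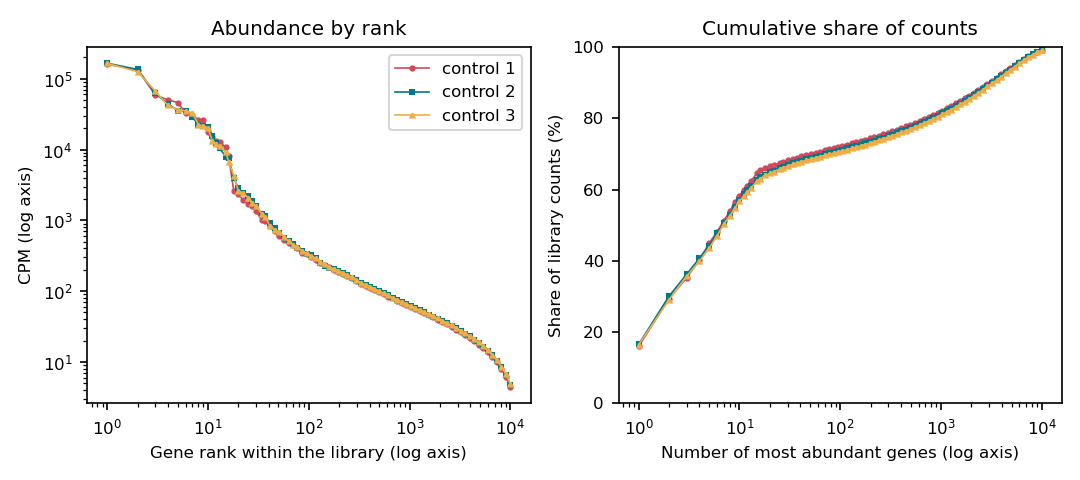
Left, CPM (log axis) of the genes at selected ranks, against rank within the library (log axis). Right, share of library counts held by the most abundant genes, in percent, against their number (log axis), at the same ranks. Each line is a control library; the curves nearly coincide, pass 50% at 7 genes and bend sharply after the first 16 genes.

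Classes of abundance were set by mean CPM. The class at 10000 CPM or more held 14 genes, 13 enzyme genes and Reg1, and 62.3% ± 1.1 (SD, n = 3) of the counts. The class from 1000 to 10000 CPM held 24 genes, 10 of them enzymes, with 5.70% ± 0.568 of the counts. Below it, 450 genes at 100 to 1000 CPM held 9.37% ± 0.0315, and 6948 genes at 10 to 100 CPM held 19.9% ± 0.454. A further 5458 genes at 1 to 10 CPM held 2.60% ± 0.130, and 4166 genes above 0 and below 1 CPM held 0.121% ± 0.0133. The remaining 6277 symbols were listed at 0 in all 3 libraries. In all, 12894 genes had a mean of at least 1 CPM, and 12294 reached it in every library.

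With the enzyme genes taken out of the total, the rest of the transcriptome had another shape. The class at 10 to 100 CPM then held 54.4% ± 0.882 of the remaining counts, the class at 100 to 1000 CPM held 25.5% ± 0.196, and Reg1 alone held 6.17% ± 0.959. Reg1 was the most unequal of these between libraries, at 7.27%, 5.71% and 5.52% of the non-enzyme counts.

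Protein-coding genes held 99.2% of the counts and long intergenic non-coding RNAs 0.209%, led by the imprinted RNA H19. By chromosome, 3 chromosomes with a single dominant enzyme gene or gene cluster stood out: chromosome 19 with 17.8% of the counts, of which Pnliprp1 gave 16.4%, chromosome 6 with 16.4%, which carries the trypsinogens, Cpa1 and Reg1, and chromosome 8 with 15.9%, of which Ctrb1 gave 13.1%.

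Digestive enzymes and their cofactor colipase, a list of 38 genes of which 37 were measured, took 63.7%, 63.5% and 63.2% of the counts, with exact 95% intervals, which cover counting error only, from 63.67% to 63.74%, from 63.46% to 63.52% and from 63.14% to 63.19%. The mean was 63.5% ± 0.273 (SD, n = 3), a coefficient of variation (CV, SD over mean) of 0.430%. By transcripts the share was higher, 78.1%, 78.5% and 78.6%, since many of these messages are short. Of the 37 genes, 32 had a mean of at least 1 CPM, 3 were listed at 0, and Amy2a5 and Dnase1 had at most 3 counts in any library.

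Lipases and colipase were the largest family by counts, 25.2% ± 0.349 of each library. By transcripts they were second at 24.3% ± 0.296 with the exon lengths used here, a place that is not settled, as given below. Pnliprp1, pancreatic lipase-related protein 1, was the most abundant gene by CPM in all 3 libraries, at 160289, 165751 and 164846 CPM. Cel, the bile-salt-dependent carboxyl ester lipase that also digests milk fat, stood at 58845, 61874 and 66578 CPM. Clps, colipase, the cofactor of pancreatic lipase, stood at 26311, 22483 and 21362 CPM. Control 1 was highest for Clps and lowest for Cel, and the libraries differed little for Pnliprp1.

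Pnlip, the classical triglyceride lipase of the adult pancreas, was at 32.4, 30.1 and 28.8 CPM. On the TPM scale, Pnliprp1 was 4878, 5430 and 5657 times as high as Pnlip, a mean ratio of 5322 ± 400.4 (SD, n = 3). Pnliprp2, a related lipase that acts on milk fat and galactolipids, was at 2829, 2393 and 2449 CPM and exceeded Pnlip 117 ± 5.63 times in TPM. The 3 lipase relatives therefore kept a fixed order in every library, with gaps far beyond the spread. Pla2g1b, the secreted phospholipase, was low and uneven at 46.4, 52.8 and 21.3 CPM, with control 3 lowest.

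Chymotrypsinogens gave 14.4% ± 0.464 of the counts and 27.2% ± 0.561 of the transcripts. With the exon lengths used here that was the largest share of transcripts of any family. With the length of the principal transcript, an alternative chosen after seeing the data, Ctrb1 and Ctrl were at 212719 and 20026 TPM. Pnliprp1, Clps and Cel were then at 143669, 54317 and 43040 TPM, so the order of these families by transcripts is not settled. Ctrb1, chymotrypsinogen B, had the highest TPM of all genes, 250869, 263755 and 246104 TPM, from 133505, 135129 and 125711 CPM. Ctrl, a chymotrypsin-like protease, was at 14887, 9036 and 13302 CPM, with control 2 clearly below the other pair. Ctrc, chymotrypsin C, which degrades or activates trypsinogen, was at 125, 189 and 234 CPM. Ctrb1 exceeded Ctrc 1733, 1165 and 874 times in TPM, so that ratio varied far more between libraries than Ctrb1 itself.

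Trypsinogens gave 7.89%, 7.22% and 8.03% of the counts, 13.2% ± 0.863 of the transcripts and a CV of 5.63% for the sum. Prss2, the most abundant trypsinogen, was at 50274, 28692 and 36422 CPM, highest in control 1. 2210010C04Rik, the next of the trypsinogen list, was at 17907, 21434 and 22533 CPM, and Try5 at 8135, 7500 and 6716 CPM.

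Within the trypsinogen cluster on chromosome 6, a group of genes was far lower in control 1 than in the other pair. Prss1, cationic trypsinogen, was at 108, 4091 and 4402 CPM. Its relative Gm5771 was at 89.0, 3980 and 4291 CPM. Prss3 and Try4 had the same order between control 1 and the other pair. Prss3 was at 36.0, 1581 and 1585 CPM. Try4 was at 271, 2988 and 2383 CPM. Gm5409, which GENCODE M21 annotates as an unprocessed pseudogene, went the other way, at 562, 3.47 and 2.69 CPM. Summed, Prss1, Prss3, Try4 and Gm5771 had 504, 12640 and 12660 CPM, while Prss2 was lower in each of controls 2 and 3 than in control 1. The share of 50-base stretches that also occur in other genes was 54.9% for Prss1, 55.4% for Gm5771, 66.1% for Prss3, 65.6% for Try4 and 7.83% for Prss2, so how reads were divided among the copies is uncertain, and its part in the difference was not tested. The whole trypsinogen sum, which does not depend on that division if no reads were dropped, was 78926, 72156 and 80253 CPM.

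Procarboxypeptidases gave 9.12% ± 0.186 of the counts and 6.28% ± 0.165 of the transcripts and were the steadiest proteases between libraries. Cpb1, carboxypeptidase B, which trims basic residues, was at 46083, 44184 and 41914 CPM. Cpa1, carboxypeptidase A1, which trims aromatic and aliphatic residues, was at 33076, 35497 and 35174 CPM.

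Proelastases gave 5.72% ± 0.360 of the counts and 5.34% ± 0.368 of the transcripts. Cela2a was at 30292, 35319 and 32856 CPM. Cela1 was at 12734, 15536 and 11031 CPM, and Cela3b at 12236, 10396 and 10909 CPM. Control 2 was highest for Cela2a and Cela1 and lowest for Cela3b. Gm13011, whose annotated symbol is Cela3a, was at only 61.9, 65.8 and 76.9 CPM.

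Amylase, the starch-digesting enzyme, was low beside the other enzymes in all 3 libraries, with a summed level of 269.8, 2241 and 1255 CPM, lowest in control 1. Amy2b made up 98.2% of it, at 250, 2212 and 1234 CPM. Its locus is also annotated as an unprocessed pseudogene, so the amylase level is uncertain. Amy1, the salivary-type gene, was at 19.6, 28.3 and 20.6 CPM. Amy2a2, Amy2a3 and Amy2a4 were listed at 0, and every 50-base stretch of these 3 genes also occurs in another gene, so reads of the pancreatic amylase copies may not have been counted and the sum may be too low. All 6 measured amylase genes shared at least 20% of their stretches.

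The ribonuclease Rnase1 was at 10776, 7956 and 9157 CPM and the tissue kallikrein Klk1 at 2479, 2189 and 2533 CPM, both lowest in control 2. Dnase1 had a single count in control 1 and none in the others. The absence of counts in controls 2 and 3 allows up to 0.315 and 0.278 CPM, as 3 counts of each total.

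Ordered by TPM, enzymes ran from Ctrb1 (253576 ± 9132, SD, n = 3) and Pnliprp1 (124735 ± 5001) to Prss2 (79640 ± 20865), Clps (64734 ± 5663) and Cel (50310 ± 4124). Cpa1 (33498 ± 2007) and Cela2a (32304 ± 3089) came next, then Cpb1 (22716 ± 675). The steps from Ctrb1 to Pnliprp1, from Pnliprp1 to Prss2 and from Clps to Cel held in every library, whereas the ranges of Prss2 and Clps, and those of Cpa1 and Cela2a, overlapped. Of the 36 pairs of neighbours in the order of 37 enzyme genes, 22 had overlapping ranges. The length used matters for some genes: with the length of the principal transcript, an alternative chosen after seeing the data, Cela1 moved from 9626 to 16802 TPM and Cela3b from 11362 to 17142 TPM, which is over 1.5 times each. At that length Cela2a was at 43629 TPM, beside 43040 for Cel and 31062 for Cpa1, so its place in the order is not settled.

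**Figure D2:**
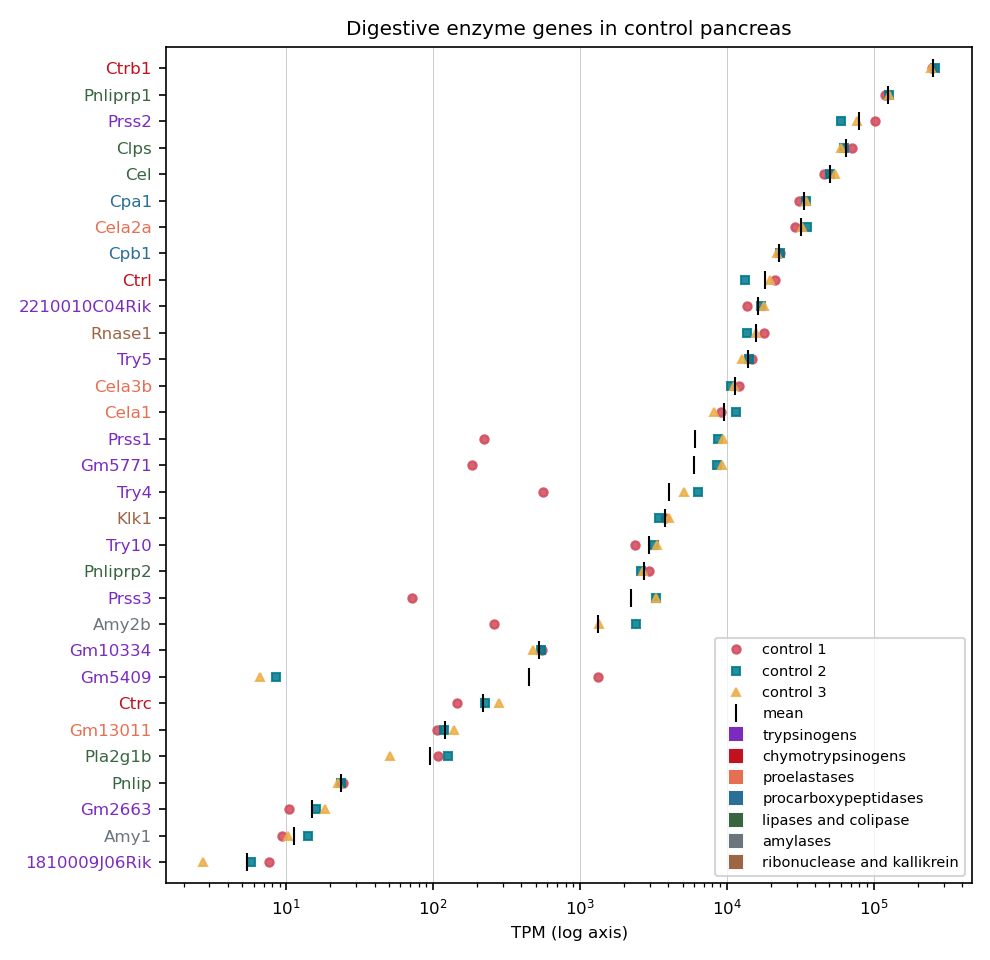
TPM (log axis) of 31 of the 32 digestive enzyme genes with a mean of at least 1 CPM in control pancreas, with 1 point per library, a vertical tick at the mean and gene names coloured by family. The points of most genes lie close together, whereas Prss1, Gm5771, Try4, Prss3 and Amy2b have control 1 far to the left and Gm5409 has it far to the right.

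Secreted proteins of acinar cells that are not digestive enzymes added 3.92%, 3.27% and 3.23% of the counts. Reg1, a secreted C-type lectin of the regenerating gene family, gave 64.8% of that at 26372, 20854 and 20322 CPM, highest in control 1. Spink3, the trypsin inhibitor stored with the zymogens, was at 1608, 1245 and 1272 CPM, and the TPM of Prss2 exceeded that of Spink3 28.0, 20.6 and 25.6 times. Sycn, a granule membrane protein needed for exocytosis, reached 5738 ± 401 TPM. Other members stood lower or at a like level. The trefoil peptide Tff2 was at 2781 ± 8.96 TPM, the granule lectin Zg16 at 3059 ± 70.9 TPM and the inhibitor Serpini2 at 1629 ± 31.6 TPM. The ranges of Zg16 and Spink3, the latter at 3188 ± 393 TPM, overlapped, and with the principal transcript length Zg16 was at 4729 TPM and Spink3 at 2675 TPM, so their order is not settled.

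Gp2, the main glycoprotein of the zymogen granule membrane, differed more, at 418, 605 and 768 CPM, lowest in control 1. Among the Reg relatives, Reg3d was at 129, 101 and 107 CPM, whereas Reg2, Reg3a, Reg3b and Reg3g were at most at 12.9 CPM in any library. Tff2, Zg16, Serpini2, Gp2 and these relatives were picked out after their values were seen. Of the 17 members at 1 CPM or more, 11 were highest in control 1, against 30.7% of all genes, or 14 after TMM scaling, against 39.3%.

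The machinery that makes secreted proteins was small beside its cargo: 60 genes for import into the endoplasmic reticulum, folding, glycosylation and degradation summed to 14685, 13874 and 13117 CPM. Folding and glycosylation was its largest group at 8787 ± 563 CPM (SD, n = 3). Pdia2, the disulfide isomerase typical of the pancreas, had the highest level at 1860, 1752 and 1773 CPM, or 1766 ± 19.9 TPM. P4hb, the widely expressed disulfide isomerase, was at 729 ± 46.6 TPM, the proline isomerase Ppib at 384 ± 15.4 TPM and Hspa5, the BiP chaperone, at 366 ± 35.4 TPM. Import was led by subunits of the signal sequence receptor and Tram1, with Ssr2 at 221 ± 21.9 TPM and Ssr3 at 173 ± 13.0 TPM. In the degradation group Sel1l, which links the ubiquitin ligase to its substrates, was at 1077, 1146 and 1168 CPM and made up 53.1% of the group.

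Of the 58 machinery genes at 1 CPM or more, 38 were highest in control 1, 17 in control 2 and 3 in control 3, where 30.7%, 30.5% and 38.8% of all genes at 1 CPM or more were highest in these libraries. After TMM scaling the counts were 44, 11 and 3, against 39.3%, 28.7% and 32.0% of all genes. Genes of cytosolic ribosomal proteins, the other large group of protein synthesis, were also mostly highest in control 1, with 56 of the 69 members at 1 CPM or more, or 60 after TMM scaling. That group summed to 1.198%, 1.07% and 1.04% of the counts, and 40 of its 82 genes share at least 20% of their stretches with other genes, so its level is uncertain.

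Outside the lists the highest TPM belonged to the translation elongation factors Eef1a1 (1724 ± 51.8 TPM, SD, n = 3) and Eef2 (981 ± 119.7 TPM). They were followed by Tmed6 (590 ± 7.76 TPM), of the p24 family of cargo receptors, Mir682, an annotated gene of only 96 bases whose TPM of 455 comes from 25.8 CPM, and Sepp1, selenoprotein P (433 ± 41.7 TPM). Tmem97, Gnb2l1, a ribosome-associated scaffold, Tmsb4x, an actin-binding peptide, Gatm, the first enzyme of creatine synthesis, and Wbp5 lay between 349.6 and 395 TPM. With the principal transcript length Gnb2l1 was at 1125 TPM in place of 379.

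Transcription factors were scarce messages by comparison. The 85 listed factors summed to 0.217% of the counts, and 72 had a mean of at least 1 CPM, as had 12894 of all 23337 symbols. All 15 acinar factors were detected at that level, with a summed 471, 529 and 538 TPM. Xbp1, the factor of the unfolded protein response that builds the secretory apparatus, led by TPM with 177, 200 and 209 TPM. By mean CPM Rbpjl was higher, at 393 against 375 for Xbp1. Rbpjl, the acinar subunit of PTF1, was at 317, 438 and 424 CPM, or 91.4, 131 and 127 TPM, lowest in control 1. Bhlha15, also known as Mist1, which organises granules and polarity, was at 163, 139 and 139 CPM, or 71.3 ± 5.12 TPM.

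Ptf1a itself was at 18.8, 20.1 and 17.1 CPM, or 20.9 ± 1.70 TPM, in mice that carry Cre at an allele of this gene. Because the strand setting of the counting is not given in the sources used here, reads of the overlapping antisense gene Ptf1aos cannot be told apart from it. Rbpjl exceeded its partner Ptf1a 4.45, 5.74 and 6.53 times in TPM. It exceeded Rbpj, the Notch effector that occupies the same place in the early complex, 92.1, 89.2 and 122 times in TPM. Both ratios depend on the exon lengths used, and in CPM the ratio to Ptf1a is larger and the ratio to Rbpj smaller. Rbpj, named after its value was seen, was at 7.67, 10.9 and 7.70 CPM. Gata4, a zinc finger factor of foregut and acinar cells, was steady at 24.4 ± 0.225 TPM.

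Foregut epithelial factors were lower, led by Tead2 at 18.9 ± 0.820 TPM, Foxa3 at 14.8 ± 1.37 TPM and Foxa2 at 13.1 ± 1.18 TPM. Prox1, the homeobox factor of progenitors, ducts and islets that the study manipulates, was at 9.86, 7.46 and 8.82 CPM in these controls, or 1.76 ± 0.212 TPM. Lymphatic endothelium also expresses Prox1, and its list is given below. Cdx2, the intestinal homeobox factor, was listed at 0 in all 3 libraries.

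Endocrine factors summed to 33.9, 27.9 and 28.7 TPM, with Pdx1 at 5.99 ± 1.07, Nkx2-2 at 4.91 ± 0.470 and Isl1 at 3.85 ± 0.811 TPM. Of the 11 at 1 CPM or more, 9 were highest in control 1, or 10 after TMM scaling, against 30.7% and 39.3% of all genes. Neurog3, the factor that starts endocrine differentiation, had 0.411, 0.210 and 0.278 CPM, at or below the 3-count floor of its libraries, and Pax4 was listed at 0. Both were picked out after their values were seen.

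Among progenitor and Notch effectors, Id2, an inhibitor of helix-loop-helix factors, was highest at 21.8 ± 2.96 TPM, followed by Myc at 16.7 ± 0.502 TPM, the proto-oncogene that drives growth, and Id3 at 13.5 ± 4.09 TPM. Of the 17 members at 1 CPM or more, 14 were highest in control 3, against 38.8% of all genes, or 9 after TMM scaling, against 32.0%. Among immediate early and stress factors Atf4, of the integrated stress response, stood out at 180, 168 and 173 CPM and 125 ± 2.51 TPM, while Fos, an early response factor, was at 1.51, 4.83 and 3.99 CPM. Of the 84 neighbour pairs in the TPM order of all listed factors, 78 had overlapping ranges. Below the first few, 3 libraries thus do not resolve the order of most neighbours. Pairs further apart can still be separate, as Gata4 (24.2 to 24.6 TPM) is from Pdx1 (5.34 to 7.22 TPM).

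**Figure D3:**
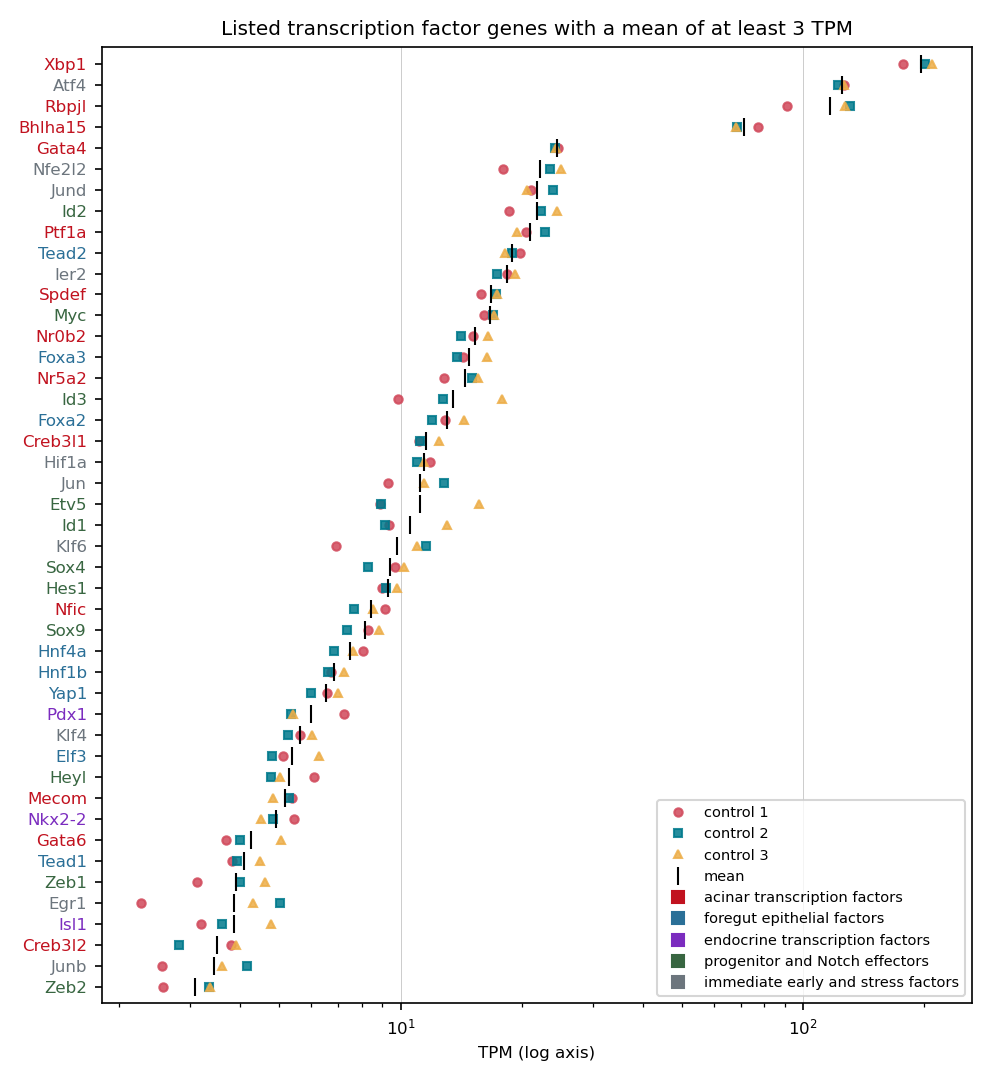
TPM (log axis) of the listed transcription factor genes with a mean of at least 3 TPM, with 1 point per control library, a vertical tick at the mean and names coloured by list. Xbp1, Atf4, Rbpjl and Bhlha15 lie apart on the right at 71.3 to 196 TPM, and the next gene, Gata4, is at 24.4 TPM.

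Genes of proliferation were clearly expressed. The lists for DNA replication and for G2 and mitosis held 51 genes, of which 50 had a mean of at least 1 CPM, against 12894 of all 23337 symbols. They summed to 1281, 1549 and 1226 CPM, a mean of 1352 ± 173 (SD, n = 3). Mki67, the marker of cycling cells, was at 127, 176 and 120.1 CPM. Top2a, the topoisomerase of mitotic chromosomes, was at 108, 125 and 98.9 CPM. Of the replication genes, Mcm6 of the replicative helicase had the highest TPM at 30.1 ± 3.99, followed by Mcm4 at 21.2 ± 0.760 and Rrm2 of ribonucleotide reductase at 20.7 ± 6.13.

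Control 2 was the highest library for most of these genes. All 25 G2 and mitosis genes at 1 CPM or more were highest there, also after TMM scaling, and 18 of 25 replication genes, or 13 after TMM scaling, where 30.5% of all genes were highest in control 2, or 28.7% after TMM scaling. The erythroid and myeloid precursor lists were highest in the same library, with 267, 658 and 170.1 CPM for the erythroid list and 35.0, 80.2 and 18.1 CPM for the neutrophil and myeloid precursor list. Their part in the proliferation values was not tested.

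The G1 gene with the highest level was Cdk4, the kinase partner of D cyclins, at 153, 151 and 149 CPM, a CV of 1.40%. Ccnd1 was at 42.2, 70.0 and 61.7 CPM and Ccnd2 at 86.5, 97.2 and 103 CPM, both lowest in control 1. Of the cell cycle inhibitors, the imprinted Cdkn1c was at 42.2, 49.1 and 48.0 CPM. The antiproliferative genes Btg2 and Btg1 followed the same order, Btg2 at 45.2, 57.6 and 52.7 CPM and Btg1 at 37.6, 47.0 and 44.2 CPM. Cdkn2a, the locus of p16 and Arf, had no count in controls 1 and 2 and 1 count in control 3.

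Fetal growth genes, many of them imprinted, summed to 2367, 2931 and 2921 CPM. H19, the imprinted non-coding RNA, was at 699, 836 and 806 CPM, and Igf2, the imprinted growth factor beside it, at 409, 476 and 418 CPM, although 61.2% of the stretches of Igf2 also occur in another annotated gene and its count is uncertain. Mest, also imprinted, was at 122, 159 and 152 CPM. Control 1 was lowest for these 3, as for 9 of the 13 members at 1 CPM or more, or 8 after TMM scaling, where 46.4% and 38.7% of all genes were lowest in that library. Hmga2 was at 3.42, 3.68 and 4.55 CPM and the RNA-binding Lin28b at 0, 0.210 and 0 CPM, both picked out after their values were seen.

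Other cell types were read from 21 lists of marker genes, and 14 of them had all their defining markers at a mean of 1 CPM or more, 11 of them in every library. That threshold is low, as 12894 of all 23337 symbols had a mean of at least 1 CPM. In whole tissue, fewer cells of a type and less RNA per cell cannot be told apart, and since the enzymes take most counts, every share below is also a share of what they leave. With the enzyme counts taken out of the total, each level is 2.74 times higher on average.

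Islet hormone genes summed to 4537, 2903 and 3178 CPM, or 0.354% ± 0.0875 of the counts. Ins2, the main insulin gene of the mouse, was at 2124, 1238 and 1533 CPM and its copy Ins1 at 975, 536 and 756 CPM. Gcg, glucagon, was at 1009, 884 and 600 CPM, and Sst, somatostatin, at 88.7, 39.2 and 40.5 CPM. Control 1 was the highest library for all 8 hormone genes, also after TMM scaling, against 30.7% and 39.3% of all genes. The ratio of Ins2 to Ins1 in TPM was steady at 1.76, 1.87 and 1.64, while that of both insulins to Gcg was 3.76, 2.45 and 4.68, so the balance of the hormones differed between libraries more than the balance of the insulin genes.

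Endocrine genes other than hormones moved less, with a sum of 996, 816 and 762 CPM. The granule protein Chga was at 203, 122 and 106 CPM. Its relative Chgb was nearly equal in all libraries at 30.8, 29.1 and 29.6 CPM, and the prohormone convertase Pcsk2 at 80.5, 71.1 and 73.6 CPM. Ttr, transthyretin, which is made by alpha cells, was at 163 ± 29.1 TPM. Control 1 was highest for 14 of the 19 members, or 16 after TMM scaling, against 30.7% and 39.3% of all genes.

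Duct genes summed to 679.7, 779.7 and 789.6 CPM, of which Spp1, osteopontin, gave 46.3% at 354, 327 and 361 CPM. The defining duct markers were the keratins Krt19, at 45.3, 70.4 and 65.9 CPM, and Krt7, at 12.9, 17.5 and 16.2 CPM, and the chloride channel Cftr, at 2.33, 4.10 and 2.32 CPM. Krt19 and Krt7 were lowest in control 1, and Cftr was highest in control 2. Muc1, an apical mucin counted with the duct and the secreted lists, reached 128 ± 36.2 TPM.

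By counts, the largest mean sum of the 21 lists belonged to fibroblast and stellate cell genes, 3546, 4934 and 5665 CPM, with control 1 lowest. In control 1 the islet hormones, at 4537 CPM, were above it. By transcripts the hormone list was the higher in every library, at 6153, 4003 and 4518 TPM. The fibroblast and stellate list was then at 849, 1123 and 1277 TPM. Col3a1 was at 1698, 2845 and 3349 CPM and gave 55.8% of the sum. The 3 defining genes had the same order of libraries. Col1a1, the main fibrillar collagen, was at 166, 227 and 263 CPM. The proteoglycan gene Dcn was at 431, 516 and 618 CPM. Pdgfra, a growth factor receptor, was at 39.4, 51.8 and 57.6 CPM. Of 14 members, 11 were highest in control 3, against 38.8% of all genes, and 10 lowest in control 1, against 46.4%. After TMM scaling 8 were highest in control 3, against 32.0% of all genes, and 9 lowest in control 1, against 38.7%. Matrix genes such as Lum, Dpt and Postn, picked out after their values were seen, did not share that order. Lum was at 118, 101 and 118 CPM. Postn was at 479, 496 and 472 CPM.

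Mesothelium, the covering of the organ, followed the fibroblast order, at 90.5, 141 and 189.5 CPM. Wt1, its transcription factor, was at 5.20, 12.6 and 16.1 CPM. The surface proteins Msln and Upk3b had the same order, Msln at 20.4, 28.5 and 38.6 CPM and Upk3b at 29.3, 48.8 and 65.7 CPM. Pericyte and smooth muscle genes did not follow it, at 206, 183 and 169.8 CPM. Acta2, smooth muscle actin, was at 60.2, 49.0 and 37.1 CPM, highest in control 1. Rgs5, a pericyte gene, was at 40.7, 33.3 and 35.9 CPM, and the smooth muscle myosin Myh11 at 27.4, 25.9 and 26.8 CPM.

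Blood endothelium was steady at 283, 320 and 308 CPM. Its junction proteins varied little, Pecam1 at 69.7, 73.8 and 70.2 CPM and Cdh5 at 38.2, 37.8 and 36.4 CPM. The receptor Kdr, for vascular growth factor, was at 34.5, 45.8 and 46.5 CPM. The lymphatic list, which includes Prox1, summed to 43.4, 44.2 and 57.2 CPM. Its hyaluronan receptor Lyve1, which some macrophages also carry, was at 14.9, 21.3 and 25.8 CPM. The receptor Flt4 was at 3.29, 2.63 and 3.43 CPM and Mmrn1 at 5.48, 3.05 and 4.08 CPM. Ccl21a, a lymphatic chemokine, was listed at 0.

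Macrophage genes led the immune lists, at 235, 301 and 304 CPM. The complement gene C1qa was at 62.2, 59.7 and 43.6 CPM, lowest in control 3. The growth factor receptor Csf1r was at 31.3, 49.0 and 50.5 CPM, lowest in control 1. Emr1, the gene of the F4/80 antigen, was at 7.12, 7.88 and 8.73 CPM. Mast cell genes summed to 49.1, 68.8 and 73.4 CPM, of which Kit, which other cells also express, gave 73.1%. The mast cell proteases had far fewer counts, Cma1 at 4.24, 4.20 and 6.78 CPM, Cpa3 at 6.57, 6.83 and 8.26 CPM and Tpsb2 at 2.87, 3.68 and 5.38 CPM. By transcripts the list summed to a mean of 30.2 TPM and no member was above a mean of 8.90 TPM. The lead of Kit therefore holds for counts only.

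Lymphocyte genes were low, and lowest in control 1. The B cell list summed to 3.97, 15.5 and 16.9 CPM. Cd79a, of the antigen receptor, was at 0.411, 2.52 and 2.13 CPM, and Ms4a1, the CD20 gene, at 0.958, 3.15 and 3.43 CPM. The T and NK cell list summed to 2.60, 8.09 and 12.0 CPM, and of its defining markers Lck alone reached a mean of 1 CPM.

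By CV of the sum, the myeloid precursor list at 72.2% and the erythroid list at 70.8% varied most of the 21 lists. Beta-s, a beta globin gene, was at 213, 496 and 148 CPM. Alas2, of haem synthesis, was at 22.2, 54.3 and 11.9 CPM. All 7 erythroid genes at 1 CPM or more were highest in control 2 and lowest in control 3, against 30.5% and 26.3% of all genes. Hba-a1, Hba-a2, Hbb-b1 and Hbb-b2 were listed at 0, so the globin sum is too low as a measure of blood. The myeloid genes S100a8, at 6.71, 18.7 and 3.43 CPM, and Ngp, at 5.07, 18.3 and 3.81 CPM, had the same order, whereas Mpo, of early granulocytes, was at 5.34, 2.31 and 0.371 CPM.

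Adipocyte genes summed to 79.0, 136 and 157 CPM. Adipoq, the hormone adiponectin, was at 2.74, 9.56 and 14.1 CPM. The lipid droplet proteins followed it, Plin1 at 0.958, 2.10 and 4.64 CPM and Cidec at 0.821, 3.57 and 5.76 CPM. All 9 members at 1 CPM or more were lowest in control 1, also after TMM scaling, against 46.4% and 38.7% of all genes. Fabp4, which endothelial cells also express, gave 63.3% of the sum. Schwann cell and glial genes were nearly equal at 67.6, 71.6 and 70.7 CPM, but Mbp, which is not specific to glia, gave 59.5% of this, and 1 of the 3 defining genes reached a mean of 1 CPM.

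Of the tissues that lie beside the pancreas, liver, intestine and stomach had a list, and these left little trace. No list was made for spleen, so its part was not tested. The hepatocyte list summed to 12.7, 8.72 and 8.82 CPM, nearly all from Alb, at 11.2, 6.83 and 7.43 CPM, while Apoa2, Apoh, Cyp2e1 and Serpina1a were listed at 0. The intestine list summed to 6.57, 7.56 and 8.17 CPM, 96.8% of it from Vil1, which pancreatic epithelium also makes, with Fabp2, Cdx1 and Cdx2 at 0. The stomach list summed to 11.5, 6.62 and 7.80 CPM, mostly Gkn3, with Gkn2 and Tff1 at 0. Skeletal muscle genes summed to at most 3.05 CPM and neuronal genes to at most 15.7 CPM.

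**Figure D4:**
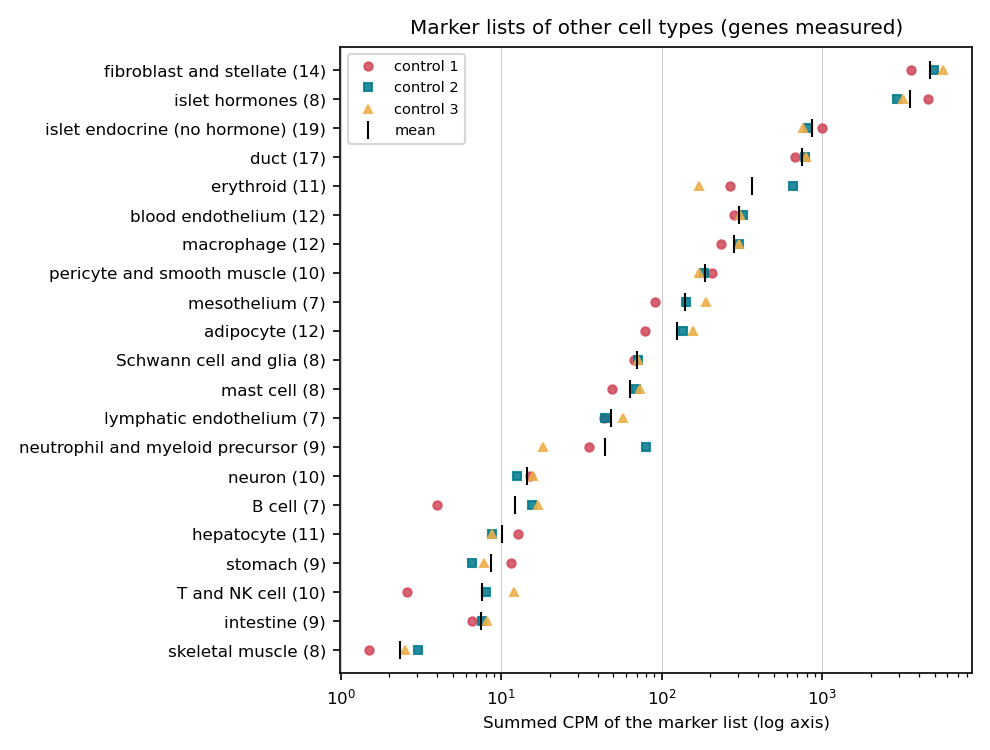
Summed CPM (log axis) of the 21 marker lists of other cell types, with the number of genes measured in parentheses, 1 point per control library and a vertical tick at the mean. The fibroblast and hormone lists are highest, and the libraries differ most for the erythroid, myeloid and lymphocyte lists.

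Most abundant genes differed little between the libraries. Of 1384 genes with a mean of at least 50 CPM, 877 (63.4%) had a CV below 10%, and the median CV was 7.93% against 3.76% from counting alone. Only 18 genes had a CV above 50%, and 13 of these were lowest in control 1, where 605 of the 1384 genes were lowest. The 10 highest were Xist, Gm5409, Gm5771, Prss3, Prss1, Amy2b, Try4, Cwc22, Car3 and Beta-s, which are 6 enzyme genes and 4 others. Without control 1 the number with a CV above 50% fell to 4.

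Cwc22, a splicing factor gene, was at 102, 114 and 12.7 CPM, with control 3 far below the other pair. Car3, a carbonic anhydrase abundant in fat, was at 18.1, 57.0 and 93.0 CPM, the order of the adipocyte list. The other 8 genes above 50% were chosen by that threshold after the values were seen. Of these, Enpp2, the secreted enzyme autotaxin, was at 54.3, 89.8 and 189.9 CPM. The complement gene C3 was at 119, 211 and 416 CPM, and the matrix gene Fn1 at 96.6, 205 and 323 CPM. Fndc1, Aebp1, Igfbp3 and Igfbp5 had the same order, control 1 lowest and control 3 highest, and Sst was highest in control 1. The order of these genes other than Sst is that of the fibroblast and mesothelial sums. Several other sums share it, among them the adipocyte, duct, macrophage and B cell sums. The part of any of these sums was not tested.

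**Figure D5:**
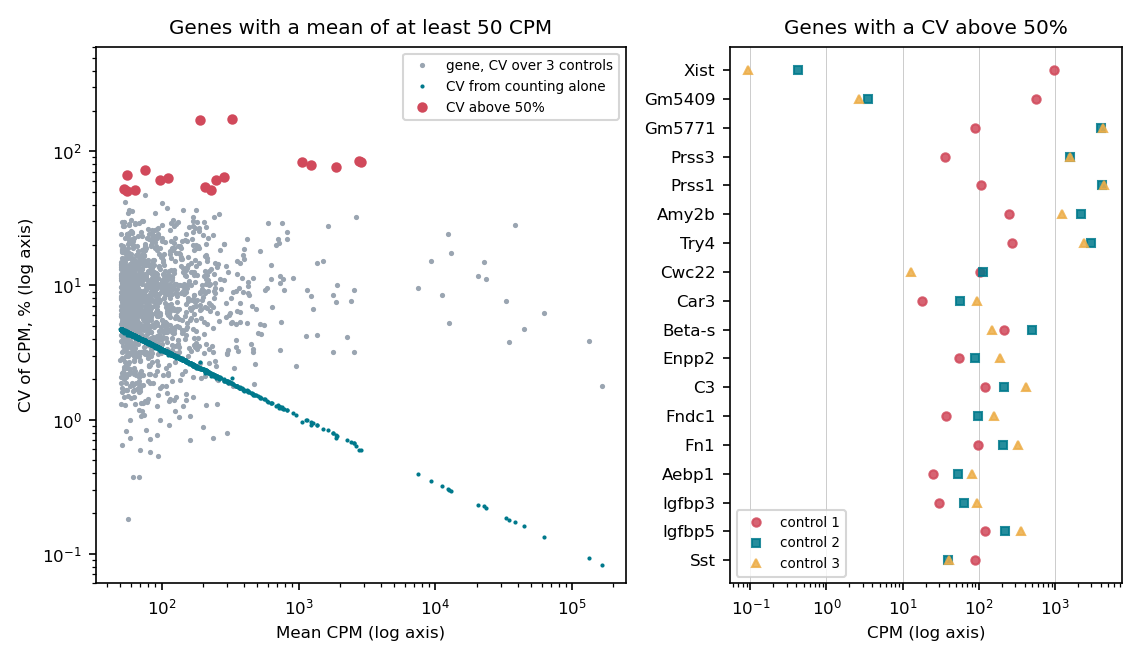
Left, CV of CPM over the 3 controls (percent, log axis) against mean CPM (log axis) for 1384 genes with a mean of at least 50 CPM, with the CV that counting alone gives and the 18 genes above 50% in red; right, CPM (log axis) of these 18 genes in each library. In 13 of the 18 control 1 is lowest, and in Xist, Gm5409 and Sst it is highest.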

How the data were processed

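Expression was measured by mRNA sequencing of whole pancreas, and the authors deposited whole-number counts per gene symbol, 1 table per library. The tools listed in the submitters' processing notes are HTSeq 0.6.1p1, STAR, DESeq2 and cutadapt 1.13, beside the build mm10, without role or order. Which annotation and strand setting were used, and how reads matching several genes were counted, is not given in the sources used here. A gene with near copies can therefore be counted too low.

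Only the 3 control libraries were used, with 7304727, 9522106 and 10773223 counts, so abundant genes are limited in precision by the number of libraries and genes near 1 CPM by counting. The design has a single group, so values are given per library with mean and SD and no test was made. CPM was computed from library totals. TPM used union exon lengths of GENCODE M21 on GRCm38, with 20916 symbols matched directly and 1879 through synonyms, and genes without a length held at most 0.271% of the counts. TMM factors came from edgeR 4.0.16 in R 4.3.3, and the other steps used Python 3.11.15 with pandas 2.3.3 and SciPy 1.17.1. Shared sequence is the share of 50-base stretches of a gene's transcripts that occur in another gene. TMM, TPM and the shared stretches were tested on simulated data.

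The 44 gene lists and the members described were chosen with earlier results of these data known. The genes named by rule were the 20 of highest CPM, all enzyme genes, in each other list the 3 of highest TPM and the defining markers, the 10 of highest CV at a mean of 50 CPM or more, the 10 of highest TPM outside the lists, and Ptf1a. Other genes named were chosen after their values were seen. Alternatives left out each library, replaced the scaling, denominator, length, filter or threshold, or left out the trypsinogens. A few genes of the lists are not reported here.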

Additional observations from a re-analysis of the deposited data

How the results depend on the processing

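Of 50 alternative values for the 9 summary results, 39 stayed within the spread between libraries, or within 1.5 times for counts, and 11 moved. Leaving out 1 of 3 libraries cannot move a mean beyond the SD of the 3. For results that are means, that alternative was bound to stay and is no check of them. Leaving out a library gave between 4 (without control 1) and 21 (without control 2) genes with a CV above 50%, in place of 18. That number was 31 with the enzymes left out of the denominator and 49 at a mean of at least 10 CPM. With the enzymes left out of the denominator, acinar transcription factors summed to 2376 TPM in place of 513, replication and mitosis genes to 3699 CPM in place of 1352, and islet hormones to 9693 CPM in place of 3539, since the denominator itself is smaller. Median transcript lengths gave an enzyme share of transcripts of 70.3% in place of 78.4% and an acinar factor sum of 653 TPM. Principal transcript lengths, chosen after seeing the data, gave 75.2% and 698 TPM. Without the trypsinogens the enzyme share of counts was 55.7% in place of 63.5%, as fewer genes are summed. No paired analysis was possible because there is a single group. With 3 libraries and no group to compare, the SDs are imprecise, and 1 CPM corresponds to fewer than 11 counts in each library.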
